A study of Mus musculus with 6 samples.

Results

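The genes described here are 10 genes known from embryonic stem (ES) cells and the germ line: Dppa2, Dppa3, Dppa4, Tcl1, Utf1, Fbxo15, Nr0b1, Prdm14, Stk31 and Ifitm3. They were taken by name, and every probe annotated to 1 of them was used, which gave 15 of the 46632 probes on the arrays. Of the 10 genes, 9 had a probe above the background limit on at least 3 of the 6 arrays, among 12936 named genes that did. RNA came from embryoid bodies, which are aggregates of differentiating ES cells, after 3 days of differentiation. Arrays labelled KO carried RNA of endoglin knockout ES cells and arrays labelled WT that of wild-type E14 control ES cells, with 3 arrays under each label. Endoglin (Eng) is a co-receptor of the TGF-beta family, and the comparison asks what its loss does to day 3 embryoid bodies. The labels give the strain of all 6 samples as C57BL/6, while the design text names E14 ES cells. How these statements fit together is not stated, and whether both labels share a genetic background was not tested. The labels name no treatment, no clone of the knockout and no separate cultures. The p-values below therefore measure only the spread between these arrays. Each array's identifier ends in a letter, which on this array type is its place on the slide: WT-1, KO-1 and WT-2 are A, B and C, and KO-2, WT-3 and KO-3 are D, E and F.

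Mouse ES cells resemble the early epiblast, and they express a layer of genes that are also active in cleavage embryos or in primordial germ cells and are silenced as cells enter the somatic lineages. Dppa2 and Dppa4 are neighbouring paralogs whose proteins bind DNA together and keep developmental promoters free of DNA methylation. Others of the group act in signalling (Tcl1), transcription (Utf1, Prdm14, Nr0b1) or the germ line itself (Dppa3, Stk31, Ifitm3), and embryoid bodies leave this programme gradually as mesoderm and endoderm form.

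Some arrays stood against their labels. Endoglin read 87.0, 90.6 and 44.4 on WT-1, WT-2 and WT-3 and 73.5, 45.4 and 48.7 on KO-1, KO-2 and KO-3, so WT-3 was the lowest of all and KO-1 lay between the other WT arrays and the other KO arrays. The readings on WT-3 and KO-2 were under the background limit. Whether the probe lies in the deleted part was not tested. A second endoglin probe was above the limit on 0 arrays. Hprt, a purine salvage enzyme that is known to be deleted in the E14TG2a subline of E14, read 60.5, 41.7 and 2553 on the WT arrays and 53.1, 2328 and 2333 on the KO arrays, with the same division. The labels do not name the subline. All results are therefore given for the 6 arrays by label, and again for the 4 arrays left when WT-3 and KO-1 are omitted, an omission chosen with these values known.

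Promoter windows from 250 bases before to 50 bases after the gene start were at hand from RefSeq (GRCm38.p6) for 5 of the 10 genes: Tcl1, Utf1, Nr0b1, Stk31 and Ifitm3. Those of Utf1, which varied most between arrays, and of Ifitm3, a germ-cell gene that varied little, are shown for contrast. The Utf1 window is chr7:139943606-139943905, plus strand, and capitals mark the GC box letters GGGCGG.
Utf1: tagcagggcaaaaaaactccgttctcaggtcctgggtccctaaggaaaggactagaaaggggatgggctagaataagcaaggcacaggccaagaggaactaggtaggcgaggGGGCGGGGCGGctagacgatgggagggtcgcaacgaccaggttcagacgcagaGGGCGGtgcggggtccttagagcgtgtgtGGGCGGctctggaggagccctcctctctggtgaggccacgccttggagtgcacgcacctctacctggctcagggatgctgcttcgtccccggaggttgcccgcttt
The Ifitm3 window is chr7:141010695-141010994, minus strand, and capitals mark GAAA, any pair of bases and GAAA again, the core of an interferon-stimulated response element.
Ifitm3: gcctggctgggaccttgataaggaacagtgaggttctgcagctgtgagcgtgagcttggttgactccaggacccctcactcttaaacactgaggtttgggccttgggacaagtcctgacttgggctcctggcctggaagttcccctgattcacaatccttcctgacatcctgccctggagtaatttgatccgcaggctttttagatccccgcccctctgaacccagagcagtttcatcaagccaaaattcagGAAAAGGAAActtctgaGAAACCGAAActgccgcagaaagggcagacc
Both strands were searched. The Utf1 window held 4 GC boxes, at positions 113, 118, 166 and 195 from its 5′ end, of which the matches at 113 and 118 share a base, and 35.7% of the 32851 windows in the table held at least 1. The Ifitm3 window held 2 paired GAAA matches, at positions 253 and 270, against 3.44% of windows with any, and 1 GC box on the other strand. The octamer ATGCAAAT, the core site of POU factors such as Pou5f1, was in 0 of the windows of these 5 genes and in 1.74% of all windows. CpG dinucleotides numbered 17 in the Utf1 window, 5 in the Ifitm3 window and 29 and 28 in the 2 overlapping Stk31 windows. The median over all windows was 7. These matches describe the letters only.

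By label, no difference was called for the group, which with 3 arrays per label does not show that there was none. Of the 9 measured genes 0 passed an adjusted p of 0.05 in limma, beside 0 of the 16619 features tested (0%), and each of the 9 had an adjusted p of 0.999. At an unadjusted p of 0.05 the counts were 0 of 9 genes and 363 features (2.18%). All KO arrays lay above all WT arrays for 0 of 9 genes, against 3.75% of features, and below them for 0 of 9, against 3.24%. The KO mean was the higher one for 8 genes and the lower one for Ifitm3, with a median difference of 0.10 on the log2 scale against 0.0028 over all features. Differences in bulk RNA do not tell fewer cells of a type from less RNA per cell.

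**Figure D1:**
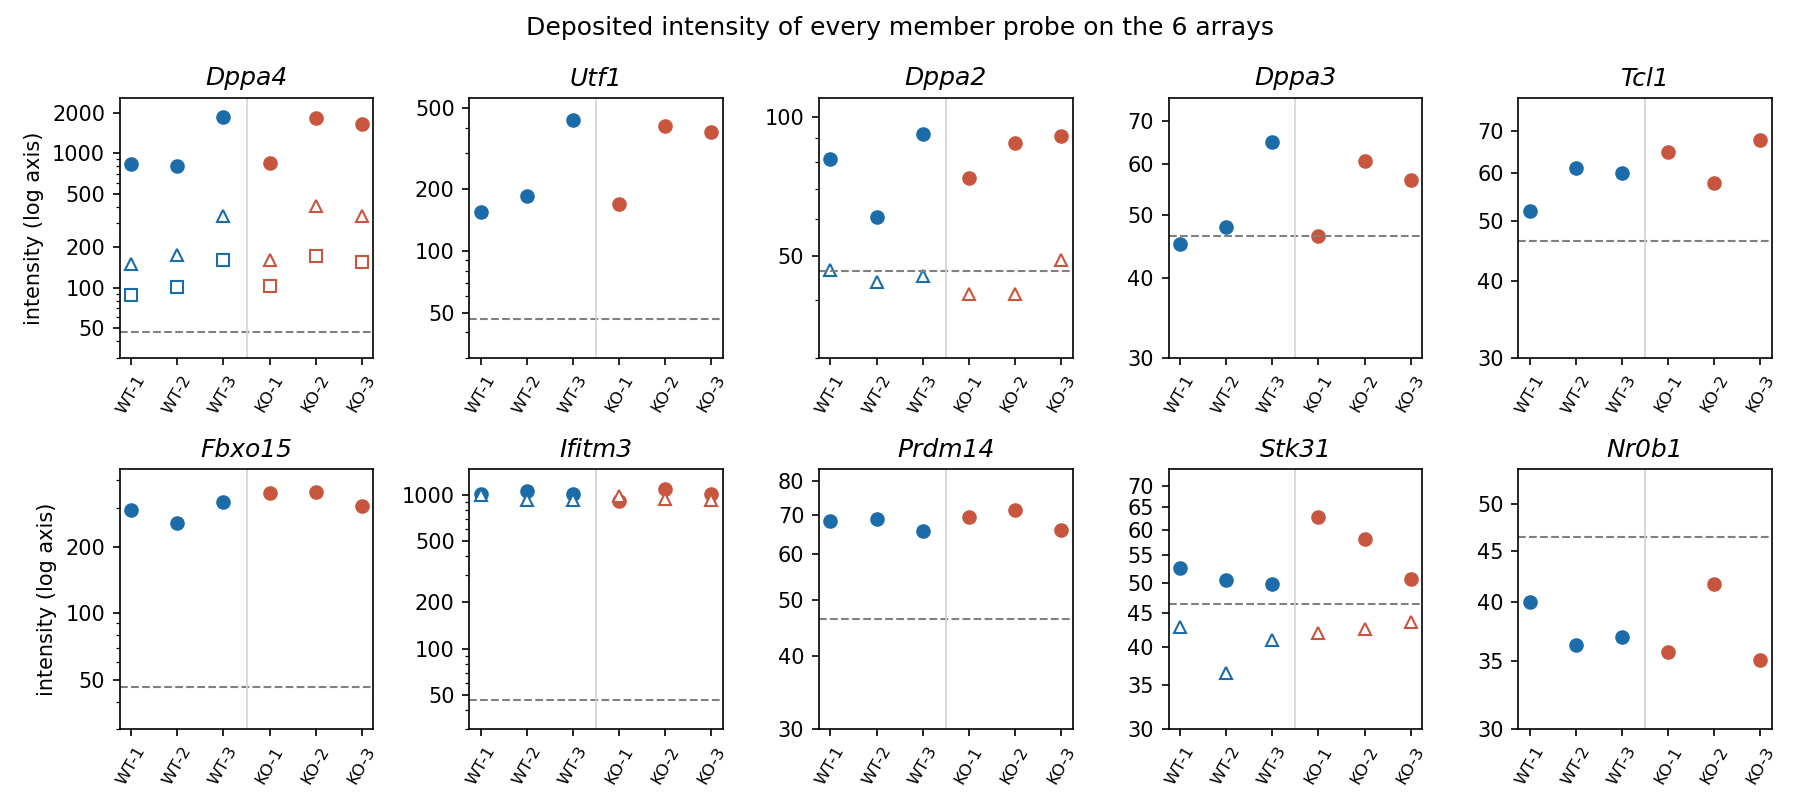
Deposited intensity (log axis) of each probe of the 10 genes on the 3 WT arrays (blue) and the 3 KO arrays (red). Filled circles are the probe of highest mean, open symbols the other probes of the gene, and the dashed line is the background limit, so Dppa4 and Utf1 stand high on WT-3, KO-2 and KO-3 while Nr0b1 lies below the limit on all 6 arrays.

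Dppa4, the DNA-binding partner of Dppa2, had 3 probes, all above background on every array. Its probe of highest mean read 831, 798 and 1856 on WT-1, WT-2 and WT-3 and 847, 1829.9 and 1647 on KO-1, KO-2 and KO-3. WT-3, KO-2 and KO-3 were high and the other 3 arrays low, and the labels overlapped. WT-3 was 2.23 times WT-1, and KO-2 was 2.16 times KO-1, while KO-1 was 1.02 times WT-1 and WT-3 was 1.01 times KO-2. The gap inside each label was thus larger than the gap between the labels. On the log2 scale the WT mean was 10.10 ± 0.67 (SD, n = 3) and the KO mean 10.44 ± 0.59 (SD, n = 3). The difference of 0.34 (SE 0.38, 95% interval -0.54 to 1.22) had an adjusted p of 0.999 in limma and p = 0.6 in the two-sided exact permutation test over the 20 groupings, which cannot go below 0.1.

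The other Dppa4 probes divided the arrays in the same way. The second probe read 149.7, 175 and 340.1 on the WT arrays and 161, 406 and 341 on the KO arrays. The remaining probe read 88.0, 101 and 159 on the WT arrays and 102, 172 and 154 on the KO arrays. On all 3 probes WT-3, KO-2 and KO-3 were the high arrays, and KO-2, not WT-3, was the highest on the other 2.

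Utf1, a chromatin-bound transcription factor of ES cells and the germ line, read 154, 186 and 434 on the WT arrays and 169.7, 409 and 379.7 on the KO arrays. Again WT-3, KO-2 and KO-3 were high and the labels overlapped. The ratio was 2.82 for WT-3 over WT-1 and 2.41 for KO-2 over KO-1, against 1.10 for KO-1 over WT-1. Means on the log2 scale were 8.003 ± 0.73 (SD, n = 3) for WT and 8.33 ± 0.65 (SD, n = 3) for KO, a difference of 0.33 (SE 0.41) with an exact permutation p of 0.8. The log2 range over the 6 arrays was 1.37 for Utf1 and 1.19 for Dppa4. A range of at least 1 was seen for these 2 of 9 genes and for 0.897% of all features.

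Dppa2 read 81.4, 60.8 and 92.1 on the WT arrays and 74.0, 88.1 and 90.9 on the KO arrays. Its lowest value and its highest were both WT arrays, and the difference of 0.096 (SE 0.12) was smaller than the spread within the WT label (SD 0.23, n = 3). A second Dppa2 probe was above the limit on only 2 arrays and was not tested. Dppa3 (Stella), which shields the maternal genome from loss of DNA methylation in the zygote and marks primordial germ cells, read 45.04, 48.0 and 65.0 on the WT arrays and 46.3, 60.7 and 56.8 on the KO arrays. It was above the limit on 5 of 6 arrays and only just so on some, and its difference of 0.042 (SE 0.12) was also smaller than the spread within either label. For both genes, as for Dppa4 and Utf1, the arrays D to F were all above the arrays A to C. This held for 4 of the 9 measured genes and for 15.4% of all features.

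**Figure D2:**
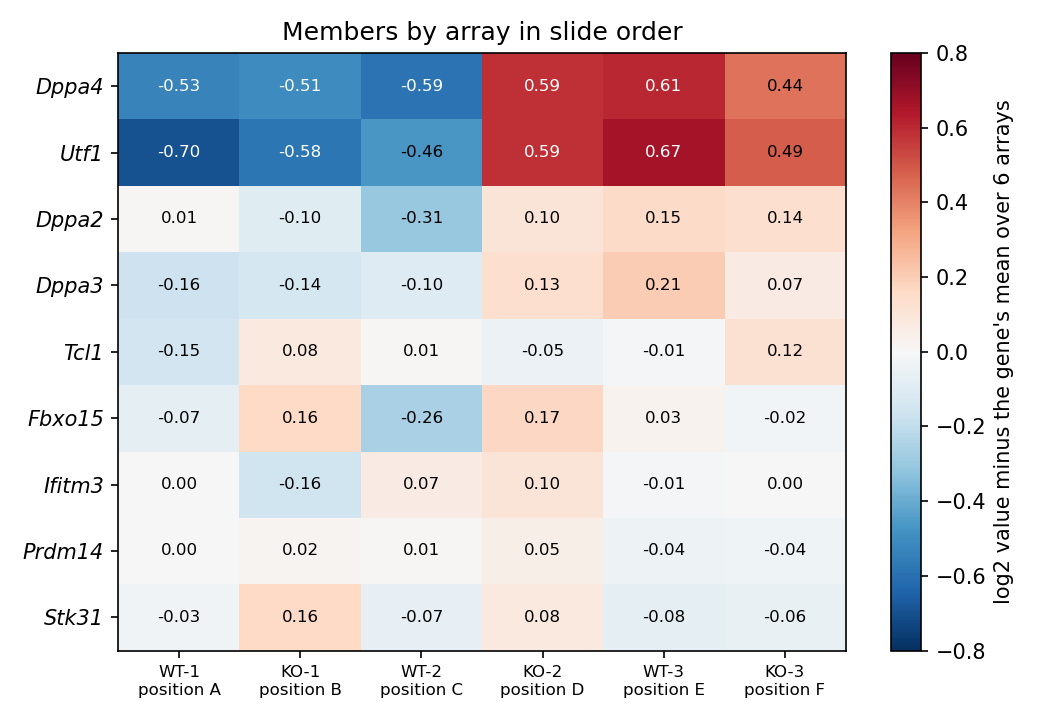
Log2 value of each measured gene minus its own mean over the 6 arrays (colour and printed value), with the arrays in the order of their letters A to F. Dppa4 and Utf1 lie between -0.70 and -0.46 on the first 3 arrays and between 0.44 and 0.67 on the last 3, Dppa2 and Dppa3 follow with smaller steps, and the other 5 genes show no such step.

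Tcl1 and Fbxo15 did not divide the arrays in this way. Tcl1, a co-activator of the kinase Akt that supports ES cell growth, read 52.0, 61.0 and 59.8 on the WT arrays and 64.8, 57.7 and 67.7 on the KO arrays. The lowest array was WT-1 and the highest KO-3, with overlap between them, and the difference was 0.10 (SE 0.075). Fbxo15, an F-box protein gene used as a reporter of Pou5f1 and Sox2 activity, read 294, 255 and 317 on the WT arrays and 349, 351 and 306 on the KO arrays. KO-2 and KO-1 were the highest and WT-1 and WT-2 the lowest, while WT-3 and KO-3 were in the reverse order. Its log2 range was 0.43, and 15.7% of all features had a range at least as wide. The difference of 0.20 (SE 0.094, 95% interval -0.014 to 0.42) exceeded the SD within either label (0.15 and 0.11, n = 3 each), with an exact permutation p of 0.2 and an adjusted p of 0.999 in limma.

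Prdm14, a PR-domain factor required for primordial germ cells and for the naive state, read 68.2, 68.8 and 65.6 on the WT arrays and 69.5, 71.3 and 66.0 on the KO arrays. Its range of 0.091 on the log2 scale was the narrowest of the 9, and 97.5% of all features had a range at least as wide. Nr0b1 (Dax1), an orphan nuclear receptor that binds Pou5f1 in ES cells, read 40.1, 36.3 and 37.0 on the WT arrays and 35.7, 41.7 and 35.1 on the KO arrays. All of these lay under the limit of 46.3 to 46.4, so Nr0b1 was not well above background on any of the 6 arrays and no fold is given.

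Stk31 and Ifitm3 overlapped between labels and between the letters. Stk31, a Tudor and kinase domain protein of spermatogenic cells, read 52.5, 50.4 and 49.8 on the WT arrays and 62.8, 58.3 and 50.7 on the KO arrays. KO-1 and KO-2 were the highest arrays and KO-3 fell between the WT arrays. The difference was 0.12 (SE 0.073, exact permutation p = 0.2), and a second Stk31 probe was above the limit on 0 arrays. Ifitm3 (fragilis), an interferon-inducible membrane protein that appears on cells as they acquire germ-line competence, read 1018, 1065 and 1008 on the WT arrays and 909, 1091 and 1018 on the KO arrays. The highest and the lowest array were both KO. Its difference was -0.037 (SE 0.079), and a second probe gave -0.0065 (SE 0.065) with 998, 934 and 929 on the WT arrays and 987, 936 and 924 on the KO arrays.

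The arrays were then compared pair by pair over the 9 genes. The root mean square difference of their log2 values was 0.15 to 0.20 among WT-1, KO-1 and WT-2 and 0.094 to 0.12 among WT-3, KO-2 and KO-3. It was 0.50 to 0.61 for the 9 pairs that join an array of the first 3 to an array of the last 3, whatever their labels. Over all features the same measure was 0.14 to 0.15 and 0.13 to 0.14 within the 2 sets and 0.23 to 0.25 across them. Dppa4 and Utf1 were the only genes of the 9 whose log2 values differed by 1 or more between any of these pairs. Because the measure squares each difference, its values across the 2 sets came mostly from Dppa4 and Utf1. They do not describe the rest of the 9 genes.

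Without WT-3 and KO-1, 2 of the 9 genes passed an adjusted p of 0.05 in limma, both higher under KO, beside 3.77% of features called higher and 4.28% called lower. Dppa4 was higher by 1.07 on the log2 scale (SE 0.087, adjusted p = 2.28e-05), which is 2.10-fold, and its other 2 probes by 1.10 (SE 0.10) and 0.66 (SE 0.093). Utf1 was higher by 1.12 (SE 0.097, adjusted p = 3.73e-05), or 2.17-fold. The offset of 50 in these values shrinks differences more at low intensity. This bears on Utf1 and most on the Dppa4 probe that gave 0.66, which had the lowest readings of the 3. Each label then had only 2 arrays. Differences for Dppa2 (0.27, adjusted p = 0.165), Dppa3 (0.23, adjusted p = 0.118) and Fbxo15 (0.24, adjusted p = 0.178) did not pass in limma. The median over the 9 genes was 0.23, against 0.0088 over all features. These 4 arrays were kept because of how endoglin and Hprt read on the other 2, and letter, Hprt reading and label cannot be told apart among them. All 6 arrays were also fitted with the array set (WT-1, KO-1 and WT-2, or the rest) as a block. The label difference was then -0.020 (SE 0.075) for Dppa4 and -0.064 (SE 0.082) for Utf1. That fit compares KO-1 with WT-1 and WT-2, and WT-3 with KO-2 and KO-3. Its label difference thus rests on the 2 arrays that stood against their labels, and it cannot decide whether the label matters.

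**Figure D3:**
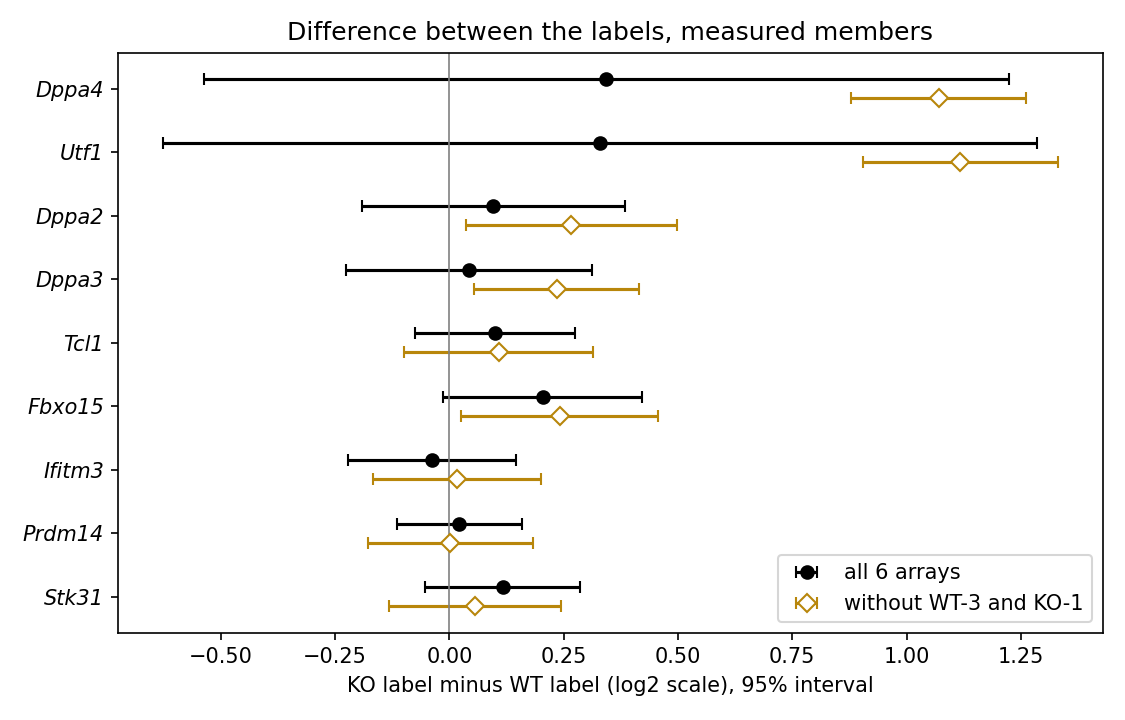
KO minus WT difference of each measured gene on the log2 scale with its 95% interval from limma, for all 6 arrays (black circles) and without WT-3 and KO-1 (open diamonds). The 6-array intervals of all 9 genes span 0, and without those 2 arrays Dppa4 moves from 0.34 to 1.07 and Utf1 from 0.33 to 1.12.

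Profiles over the 6 arrays were compared among the genes and with the other 12935 named genes, as the root mean square difference of centred log2 values. Dppa4 and Utf1 differed by 0.096 and Dppa2 and Dppa3 by 0.12, while Dppa2 and Dppa4, the partners, differed by 0.42 because the step of Dppa2 was smaller. The nearest to Utf1 were Amn (0.082), a membrane protein of visceral endoderm, Slc7a3 (0.084), an arginine and lysine transporter, and Dnmt3l (0.088), the cofactor of the de novo DNA methyltransferases. Dnmt3l read 426, 523 and 1027 on the WT arrays and 498, 1116 and 1097 on the KO arrays, high on the same arrays as Utf1. The nearest to Dppa4 were Itga3 (0.062), an integrin subunit, Eras (0.071), an ES cell Ras protein, and Ppp1r1a (0.080), an inhibitor of protein phosphatase 1. The nearest to Dppa2 were Gm5069 (0.033), Hsdl1 (0.037) and Tor1a (0.042).

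**Figure D4:**
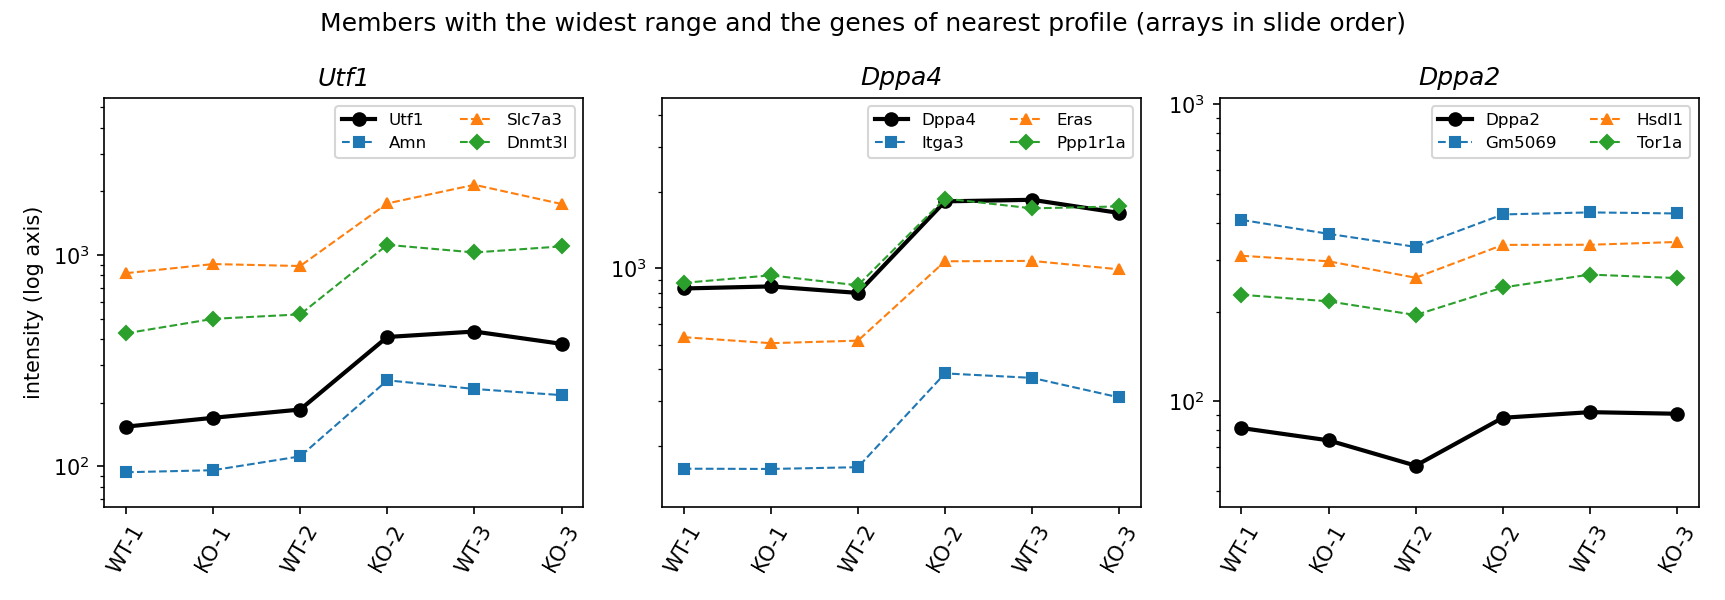
Deposited intensity (log axis) of Utf1, Dppa4 and Dppa2 (black) and of the 3 named genes with the nearest profile to each (colours), with the arrays in the order of their letters. The genes beside Utf1 and Dppa4 step up between WT-2 and KO-2, as for Dnmt3l from 523 to 1116. Heights of different genes are not comparable on these arrays.

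None of the related germ-line genes measured passed an adjusted p of 0.05 by label. In a list of primordial germ cell genes without the 10 above, 10 of 14 were measured, 6 higher and 4 lower under KO, with a median difference of 0.013. The 3 with the smallest p were Dnd1 (0.37, SE 0.15), an RNA-binding protein of germ cells, Lin28a (-0.11, SE 0.077) and Kit (0.12, SE 0.089). Dnd1 read 245, 232 and 286 on the WT arrays and 258, 395 and 362 on the KO arrays, so it overlapped between labels through KO-1. Without WT-3 and KO-1, Dnd1 and Rhox9 were called higher and Ifitm1 lower, which is 2 and 1 of 10, beside 3.77% and 4.28% of all features.

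In a list of meiosis and piRNA genes that includes Stk31, 14 of 26 were measured, 9 higher and 5 lower, with a median of 0.075. The leading ones by p were Tex11 (-0.17, SE 0.083), Piwil2 (-0.16, SE 0.086) and Stk31. Among the 12 not measured were Mael, Asz1 and Tdrd1 of the piRNA pathway, Stra8, which starts meiosis, and Sycp2 and Sycp3 of the synaptonemal complex. Without WT-3 and KO-1, 2 of the 14, Tdrd12 and Tex19.1, were called higher, beside 3.77% of all features. Genes of the 2-cell stage, some of them known to depend on Dppa2 and Dppa4 in ES cells, were measured for 9 of 14, with 4 higher, 5 lower and a median of -0.042. Zscan4a, a marker of 2-cell-like ES cells, read 49.2, 52.0 and 77.2 on the WT arrays and 47.6, 77.7 and 57.3 on the KO arrays, and none of the 9 was called under either set of arrays. The leading ones were Arg2 (-0.14, SE 0.081), Tdpoz1 (-0.055, SE 0.064) and Usp17lc (-0.050, SE 0.062).

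A list of paralogs of the genes, which also holds Zscan10 although it is not a paralog of any of them, had 19 genes on the arrays. Of these 6 were measured, 3 higher and 3 lower, and none of the 5 Tcl1b genes was above background on enough arrays. The leading ones were Zscan10 (0.13, SE 0.068), Fbxo16 (-0.17, SE 0.094) and Ifitm1 (-0.18, SE 0.19). Ifitm1, a neighbour and paralog of Ifitm3, read 5112, 5215 and 3223 on the WT arrays and 4552, 3824 and 3424 on the KO arrays, so it was low on the 3 arrays where Dppa4 was high, and it was called lower without WT-3 and KO-1 (-0.51, SE 0.087, adjusted p = 0.00441 in limma). Ifitm3 gave 0.017 (SE 0.084) in that fit.

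Other ES-associated genes were measured for 29 of 30, 22 higher and 7 lower under KO, with a median of 0.10, beside 0.10 for the 9 genes. Their leading ones were Klf5 (0.22, SE 0.093), Nr5a2 (-0.14, SE 0.095) and Rif1 (0.18, SE 0.14). For 17 of the 29 the arrays D to F were all above A to C, beside 15.4% of all features. The counts were 4 of 10 primordial germ cell, 3 of 14 meiosis and 2 of 9 2-cell genes and 0 of 6 genes of the paralog list. They were all below for 2 of the 29, 2 of 10, 0 of 14, 2 of 9 and 2 of 6 in the same order, and for 14.7% of all features, with 0 of the 9 genes. Without WT-3 and KO-1, 11 of the 29 were called higher and 1, Tbx3, lower, beside 3.77% and 4.28% of all features, with a median of 0.25 against 0.23 for the 9 genes.

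**Figure D5:**
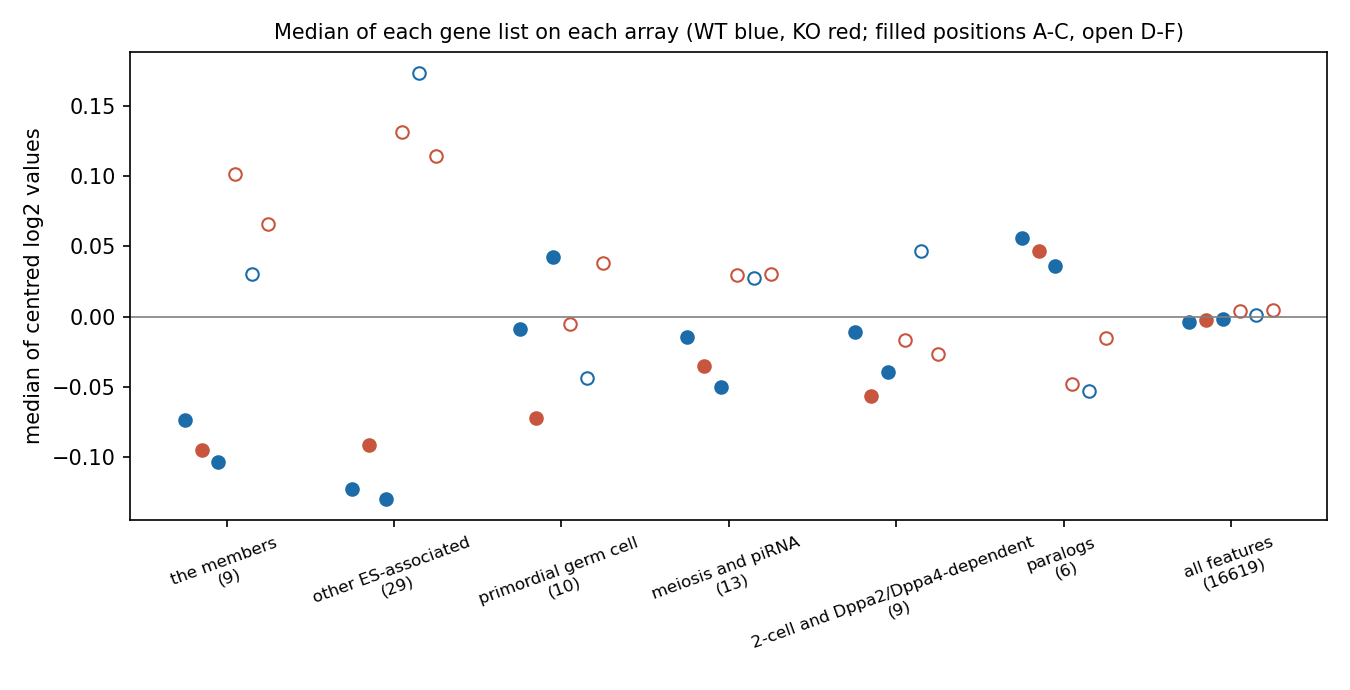
Median over each gene list of log2 values centred on each gene's mean, for the 6 arrays (blue WT, red KO, filled letters A to C, open letters D to F), with the number of measured genes in brackets. The medians of the 9 genes and of the other ES-associated genes lie below 0 on the first 3 arrays and above 0 on the last 3. They run from -0.10 to 0.10 and from -0.13 to 0.17, while the median of all features stays between -0.0036 and 0.0046. Of the 9 genes, only 4 were higher on all of the last 3 arrays than on the first 3.

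The tissue label was checked on 5 genes of day 3 embryoid bodies (Pou5f1, T, Fgf5, Mixl1 and Eomes), all of them measured on these arrays. Of these 5, Pou5f1 and Fgf5 were higher and T and Mixl1 lower on all of WT-3, KO-2 and KO-3 than on the other 3 arrays. Fgf5, a primed epiblast gene, read 1320.2, 1377 and 2183 on the WT arrays and 1471, 2342 and 2319.5 on the KO arrays. Mixl1, a primitive streak gene, read 1349.7, 1392 and 809 on the WT arrays and 1382, 897 and 977 on the KO arrays. Primitive endoderm and trophoblast markers also divided the arrays in this way, in both directions. Of 10 primitive endoderm markers 7 were measured, with a summed intensity of 2562, 2675 and 1411 on the WT arrays and 2323, 1635 and 1602 on the KO arrays. Gata6 made up the largest part of these sums. Gata4, Gata6, Sox7 and Sox17 were lower and Amn, Dab2 and Ttr higher on the 3 arrays where Dppa4 and Utf1 were high, and Afp, Cubn and Lama1 were not above background. Of 12 fibroblast markers 6 were measured, with sums of 4791, 4126 and 2492 on the WT arrays and 4118, 2479 and 2307 on the KO arrays, mostly from Vim, which was lower on WT-3, KO-2 and KO-3, while 1 of the other markers was all higher there and 4 overlapped. The defining collagens Col1a1, Col1a2 and Col3a1 were not above background. Of 8 trophoblast markers 7 were measured, with sums of 2958, 2713 and 2257 on the WT arrays and 2658, 2529 and 2333 on the KO arrays, and Elf5 was not. The largest part of these sums came from Krt8. Cdx2, Gata3, Hand1 and Krt8 were all lower and Krt7 and Tfap2c all higher on WT-3, KO-2 and KO-3. Gata3 read 186, 172 and 44.1 on the WT arrays and 179, 50.7 and 57.7 on the KO arrays. Of 6 neural markers 3 were measured, with sums of 214 to 238 and 231 to 248, and Pax6, Sox1 and Zic1 were not. None of those 3 was all higher on WT-3, KO-2 and KO-3, and Nes was all lower. By label, all KO arrays lay above all WT arrays for Tubb3 (0.29, SE 0.079) and Dcn (0.13, SE 0.061), as for 3.75% of features. They lay below for Acta2 (-0.21, SE 0.069), as for 3.24% of features. Each of these genes had an adjusted p of 0.999 in limma. The part of these cell types in the values of Dppa4 and Utf1 was not tested.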

How the data were processed

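Biotinylated cRNA from day 3 embryoid bodies was hybridised to Illumina mouse arrays, with 3 arrays under each label. RNA was extracted with Trizol and cleaned with DNase, per the labels' protocols. The deposited values are probe intensities on a linear scale, already comparable between arrays (medians 45.06 to 45.10). How the authors normalized them was not given in the sources used here. A second table of the series has 12 value columns that match no sample by name, and these were not used. Its symbol column named 5140 probes and the platform annotation named 29976. The other 11516 probes, which include 10 annotated to several genes, had no name, and 3683 of the features tested were unnamed.

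From the intensities, normexp background correction (offset 50) and log2 were computed, with no further normalization. A probe was kept when above the 95th percentile of the background peak (46.3 to 46.4) on at least 3 of 6 arrays, which left 22250 probes. Each gene was represented by the probe of highest mean, which gave 16619 features. Labels were compared with limma 3.58.1 in R 4.3.3, two-sided, with Benjamini-Hochberg adjustment over all features and a threshold of 0.05, in a script tested on simulated data. Single genes were also compared by a two-sided exact permutation test. The array number limits precision.

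All 10 genes are named with every probe, and of each related list the genes past the threshold or else the 3 of smallest p. Likeness was ranked for the 3 genes of widest range. The genes and lists were chosen with earlier results of these data known. Alternatives concerned how background was corrected, how arrays were scaled, which probes and arrays were used, weights, blocks and the variance model. Same-numbered arrays were not treated as pairs, because the labels state no pairing. Their deviations from the label means correlated at 0.61, -0.30 and 0.53, which does not settle whether they are pairs. A fit with the replicate as a block is given below.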

Additional observations from a re-analysis of the deposited data

How the results depend on the processing

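With each single array left out in turn 0 of 9 genes and 0 features were called, as with all 6. Over these omissions the difference ranged from -0.030 to 0.16 for Dppa3, from -0.034 to 0.20 for Dppa2 and from -0.097 to 0.032 for Ifitm3, so that each changed direction without passing the threshold. Dppa4 gave 0.68 without KO-1, 0.73 without WT-3 and 0.13 to 0.21 without any of the other 4, and Utf1 gave 0.70, 0.75 and 0.062 to 0.18, lowest without WT-1. Omission of WT-3 and KO-1 together called 2 genes and 1338 features, moved the median of the 9 genes to 0.23 and turned Ifitm3 to 0.017. With the array set (WT-1, KO-1 and WT-2, or the rest) as a block the median was 0.010, and Dppa3 (-0.055), Dppa4 (-0.020) and Utf1 (-0.064) changed direction, which follows from the block taking up the step between those arrays. Subtracting the background peak and adding 16 moved the median to 0.22; the cause was not tested. With the replicate block the median was 0.10, 0 of 9 genes were called, and Dppa4 gave 0.34 (adjusted p = 0.949). Array weights called 0 genes (smallest adjusted p 0.613) and kept each direction, but moved Dppa4 to 0.66, Utf1 to 0.66, Dppa2 to 0.19 and Dppa3 to 0.12. The other alternatives to background, normalization, filter, probe choice and variance model called 0 genes and kept the direction of each of the 9 genes. The exception was Dppa3, which was not tested when all 6 arrays had to be above the limit, leaving 8. Quantile normalization could hardly change the values, because the deposited intensities were already alike in distribution (medians 45.06 to 45.10). Dppa3, Tcl1 and Stk31 read close to the background limit, and Prdm14 and Dppa2 not far above it, where folds are understated.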
